A study of Homo sapiens with 9 samples.

Results

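Transcription factors that give prostate luminal cells their identity, and coregulators that work with nuclear hormone receptors, were followed in LNCaP cells treated with recombinant NRG1. The 8 genes were FOXA1, HOXB13, GATA2, GRHL2, SPDEF, NCOA2, NCOR1 and SOX9. They were listed by name for their known roles in prostate epithelium, not by a threshold on their values, and make up 8 of the 37351 genes in the table of read counts. All 8 had enough reads to be tested, among 19250 tested genes. Of these 8 genes, 6 differed among the 3 times (4 to 5 without 1 library), where 25.1% of all tested genes did. That share is over genes of all levels and was not matched for level. Per kb of exon HOXB13, FOXA1, GATA2 and SPDEF lay above at least 96.4% of tested genes at 0 h. The list was also chosen with earlier results of these data known. GATA2 and GRHL2 rose at 12 h and 24 h, and SPDEF and HOXB13 were lower at 24 h. At 12 h FOXA1, NCOA2 and SPDEF passed as lower, but each of these calls was lost without certain single libraries. No change reached 1.5-fold.

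LNCaP is a human prostate carcinoma line that grew from a metastasis and keeps a luminal, androgen-responsive character. NRG1 is a secreted growth factor that binds the receptor HER3, which signals in a pair with HER2. All 9 libraries came from this 1 line, plated in triplicate wells and starved without serum or calcium for 6 to 12 h. NRG1 was given at 15 ng/mL for 12 or 24 h, and the 0 h wells are the baseline with no dose listed. Total RNA was taken from 3 wells per time. No library of cells kept in the same medium without NRG1 for 12 or 24 h was analysed here, so NRG1 and time in that medium cannot be told apart. As the replicates are wells of 1 line, the p-values measure the spread between wells. In bulk RNA, fewer cells that make a transcript and less of it per cell cannot be told apart.

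In prostate epithelium, pioneer factors such as FOXA1 and GATA2 bind closed chromatin and open it for nuclear hormone receptors. HOXB13 is a homeobox factor that marks the prostate along the body axis and binds many of the same enhancers. GRHL2, SPDEF and SOX9 are factors of epithelial and secretory or progenitor programmes. Coactivators of the NCOA family bring histone acetyltransferases to receptors that have bound ligand, whereas NCOR1 brings the deacetylase HDAC3 and represses.

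Total counts per library were 47016302 to 60985825, and the 0 h libraries were the deepest. Levels are given as CPM, read counts relative to the size of the library, with library sizes scaled by the trimmed mean of M values (TMM) unless stated otherwise. The luminal label was checked against marker genes. On library totals, KRT8 lay at 512.9 to 635.2 CPM over the 9 libraries, KRT18 at 336.1 to 419.5, CDH1 at 498.5 to 558.1, EPCAM at 145.1 to 157.9, KLK3 at 988.8 to 1333 and FOLH1 at 1387 to 1624, whereas KRT19, another luminal keratin, was low at 1.531 to 1.923. Of the markers that define basal cells, KRT5 had 1 read in all 9 libraries together, TP63 had 8 and KRT14 had 71, while of the other basal markers DST lay at 9.8 to 13.12 CPM and ITGB4 at 2.178 to 3.661. Of 10 stromal and immune markers, PTPRC had 10 reads and COL1A1 was the highest at 21.41 to 26.31 CPM. Of the 6 tested, COL3A1 (0.2918 to 1.702 CPM) passed as higher at 12 h and 24 h and LUM (0.9782 to 1.714 CPM) at 24 h, by edgeR. The neuroendocrine marker CHGA had 34 reads, and ENO2, which many dividing cells also express, lay at 83.79 to 117.3 CPM. Of the 2 neuroendocrine markers tested, ENO2 alone passed. It was higher by 0.40 at 12 h and 0.31 at 24 h on the log2 scale (edgeR adjusted p = 8.83e-10 and 1.39e-07). The sum of the luminal markers was 4160 to 4240 CPM before treatment, 4392 to 4423 after 12 h and 4216 to 4359 after 24 h, and the part of these marker genes in the changes below was not tested.

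GATA2 has more than 1 annotated start and a transcript running the other way across it. Counts per gene cannot tell which start was used, so promoter windows are given as a description only. Both GATA2 windows and the window of SPDEF, the member with the deepest fall, are printed. They come from RefSeq on GRCh38.p14 and run from 250 bases before to 50 after an annotated start, 5′ to 3′ on the minus strand. Capitals mark matches to the GC box GGGCGG, searched on both strands. The first GATA2 window is chr3:128488481-128488780, the second is chr3:128493152-128493451 and the SPDEF window is chr6:34556280-34556579.
GATA2 first window: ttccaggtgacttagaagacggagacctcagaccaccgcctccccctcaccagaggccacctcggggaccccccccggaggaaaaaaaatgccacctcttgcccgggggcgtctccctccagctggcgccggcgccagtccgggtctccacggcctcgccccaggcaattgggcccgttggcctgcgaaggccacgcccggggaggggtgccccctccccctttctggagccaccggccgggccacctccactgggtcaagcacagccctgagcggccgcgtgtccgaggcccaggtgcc
GATA2 second window: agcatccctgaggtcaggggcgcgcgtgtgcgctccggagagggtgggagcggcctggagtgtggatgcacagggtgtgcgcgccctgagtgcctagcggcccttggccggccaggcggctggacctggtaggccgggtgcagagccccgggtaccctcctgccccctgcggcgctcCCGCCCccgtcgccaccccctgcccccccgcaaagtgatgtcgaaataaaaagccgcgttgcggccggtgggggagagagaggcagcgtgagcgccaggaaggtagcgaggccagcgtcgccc
SPDEF window: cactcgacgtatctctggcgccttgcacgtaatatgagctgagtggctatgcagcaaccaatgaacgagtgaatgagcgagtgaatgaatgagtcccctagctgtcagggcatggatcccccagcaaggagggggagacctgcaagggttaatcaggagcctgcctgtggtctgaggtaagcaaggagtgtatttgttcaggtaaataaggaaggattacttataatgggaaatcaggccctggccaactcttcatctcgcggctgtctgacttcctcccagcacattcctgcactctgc
The GATA2 windows were 71.3% and 72.3% G or C and held 22 and 29 CpG pairs, against a median of 58.7% and 14 pairs over all 35116 windows of the same length. The SPDEF window was 52% G or C with 8 CpG pairs. A GC box was in the second GATA2 window only among these 3 windows, and 44.95% of all windows held one. None of the 3 held, on either strand, the forkhead letters TGTTTAC, which were in 3.42% of all windows. They also lacked the GATA letters AGATAA (in 10.3% of all windows), the steroid receptor letters AGAACA (in 14.8%) and the HOXB13 letters CCAATAAA (in 0.934%). Of 6 windows of members, with those of FOXA1 and NCOR1 that are not printed, 1 of NCOR1 held the HOXB13 letters and 2 held a GC box. None of the 6 held the forkhead, GATA or steroid receptor letters. A match is a run of letters and not a measured site.

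**Figure D1:**
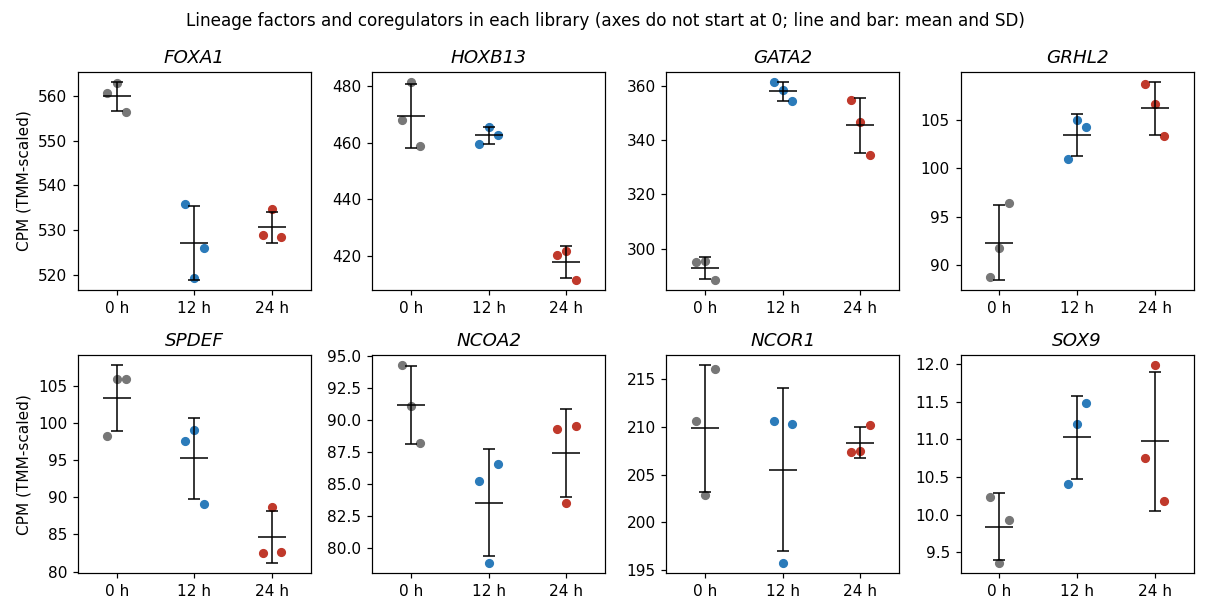
CPM (TMM-scaled; the axes do not start at 0) of each of the 8 genes in the 9 libraries, by time after NRG1; points are libraries, and the line and bar are the mean and SD of 3. GATA2 lies at 288.5 to 295.5 at 0 h and above 334 in each later library, and HOXB13 at 24 h lies at 411.3 to 421.6, below each earlier library.

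GATA2 had the largest change of the 8 genes at 12 h. GATA2 (ENSG00000179348.12, chr3:128479427-128493201) is a zinc finger factor that binds GATA motifs and opens enhancers for hormone receptors. It stood at 295.3, 295.5 and 288.5 CPM in the 0 h libraries, at 361.2, 358.3 and 354.3 at 12 h, and at 354.8, 346.8 and 334.5 at 24 h. All 6 treated libraries lay above the 0 h libraries. The mean rose from 293.1 ± 3.986 (SD, n = 3) to 358.0 ± 3.435 at 12 h and 345.4 ± 10.22 at 24 h. The log2 fold change was 0.29 (SE 0.031, 95% interval 0.23 to 0.35) at 12 h, a rise of 22.1%, with an adjusted p of 6.69e-09 by edgeR's quasi-likelihood test. At 24 h it was 0.24 (SE 0.031, 95% interval 0.17 to 0.30; edgeR adjusted p = 2.78e-07), a rise of 17.8%. The 24 h level was not separable from the 12 h level, with a log2 fold change between them of -0.05 (95% interval -0.11 to 0.01; edgeR adjusted p = 0.388).

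GATA2-AS1, a long non-coding RNA on the plus strand at chr3:128489212-128502970, moved the other way. It overlaps 3990 bases of GATA2 and had 22.7% as many reads as GATA2. Its mean fell from 83.07 ± 2.239 CPM (SD, n = 3) to 69.96 ± 1.976 after 12 h and 70.06 ± 2.874 after 24 h, with 80.68 the lowest library at 0 h and 72.09 the highest later one. Its log2 fold changes were -0.25 at both times, with edgeR adjusted p of 7.94e-06 at 12 h and 7.09e-06 at 24 h. Its start lies 682 bases upstream of the GATA2 start of the first window and inside the transcript that begins at the second. Whether reads were counted by strand is not given in the sources used here, so reads in the shared bases cannot be told apart.

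FOXA1, the forkhead pioneer factor of prostate and breast epithelium, fell slightly at 12 h. The gene is ENSG00000129514.8 (chr14:37589552-37596059). Its levels were 560.5, 562.7 and 556.4 CPM at 0 h, 535.9, 519.5 and 526.1 at 12 h, and 528.9, 534.7 and 528.6 at 24 h. Each 0 h library lay above every later one, while the 12 h and 24 h libraries overlapped. The mean CPM (with SD, n = 3 each) was 559.9 ± 3.194 before treatment, 527.2 ± 8.254 after 12 h and 530.7 ± 3.413 after 24 h. The log2 fold change at 12 h was -0.09 (SE 0.030, 95% interval -0.15 to -0.03; edgeR adjusted p = 0.035), a difference of -5.83%. This call was lost without any 1 of the 6 libraries compared, where the log2 fold change ranged from -0.095 to -0.072. At 24 h the log2 fold change was -0.08 (95% interval -0.14 to -0.02), which missed the threshold with an edgeR adjusted p of 0.0592. TTC6, on the other strand, shares 213 bases with FOXA1 and had 8.85% as many reads.

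HOXB13 fell only after 12 h. HOXB13 (ENSG00000159184.8, chr17:48724763-48728750) stood at 467.9, 481.6 and 459.0 CPM at 0 h, at 459.7, 465.7 and 462.6 at 12 h, and at 420.3, 421.6 and 411.3 at 24 h. The 24 h libraries were the lowest and overlapped neither other group, while the 12 h libraries lay within the range of 0 h. The mean was 469.5 ± 11.35, 462.6 ± 3.016 and 417.7 ± 5.621 CPM in order of time (SD, n = 3 each). At 12 h the log2 fold change was -0.02 (95% interval -0.08 to 0.04; edgeR adjusted p = 0.704). At 24 h it was -0.17 (SE 0.030, 95% interval -0.23 to -0.11; edgeR adjusted p = 5.7e-05), a difference of -11.0%. The direct test of 24 h against 12 h gave -0.15 (95% interval -0.21 to -0.09; edgeR adjusted p = 0.0016), so the change between the later times passed the test on its own.

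SPDEF showed the largest fall of the 8 genes at 24 h. SPDEF (ENSG00000124664.11, chr6:34537802-34556333) is an ETS factor of secretory epithelia. Its levels were 98.2, 105.9 and 105.9 CPM at 0 h, 97.55, 99.09 and 89.06 at 12 h, and 82.56, 88.75 and 82.64 at 24 h. The 24 h libraries lay below all others, and the 12 h libraries overlapped those at 0 h. Mean levels were 103.3 ± 4.453, 95.23 ± 5.401 and 84.65 ± 3.552 CPM (SD, n = 3 each). The log2 fold change was -0.12 (SE 0.041, 95% interval -0.20 to -0.03; edgeR adjusted p = 0.0408) at 12 h and -0.29 (SE 0.041, 95% interval -0.37 to -0.20; edgeR adjusted p = 1.83e-06) at 24 h. In percent these were -7.80 and -18.1. Between 12 h and 24 h the log2 fold change was -0.17 (95% interval -0.25 to -0.09; edgeR adjusted p = 0.00886). The 12 h call was lost without 0 h replicate 2 or 3 or 12 h replicate 1 or 3, with log2 fold changes of -0.15 to -0.068 over the libraries left out, and by DESeq2. The call between 12 h and 24 h was lost without 12 h replicate 1 or 2 or 24 h replicate 1 or 3, with values of -0.22 to -0.14.

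GRHL2 rose at both times. GRHL2 (ENSG00000083307.12, chr8:101492439-101669726) is a Grainyhead factor that maintains cell junctions and the epithelial state. It was measured at 88.79, 91.75 and 96.45 CPM at 0 h, at 101.0, 105.0 and 104.3 at 12 h, and at 108.7, 106.6 and 103.3 at 24 h. All later libraries exceeded all 0 h libraries, and the later groups overlapped each other. The means were 92.33 ± 3.863, 103.5 ± 2.123 and 106.2 ± 2.684 CPM (SD, n = 3 each). The log2 fold change was 0.16 (SE 0.036, 95% interval 0.09 to 0.24; edgeR adjusted p = 0.000979) at 12 h and 0.20 (SE 0.036, 95% interval 0.13 to 0.28; edgeR adjusted p = 5.92e-05) at 24 h, rises of 12.1% and 15.0%. From 12 h to 24 h the difference was 0.04 (95% interval -0.04 to 0.11; edgeR adjusted p = 0.651).

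SOX9, a factor of progenitor and basal-like states in the prostate, was the least abundant member and did not pass the test. SOX9 (ENSG00000125398.8, chr17:72121020-72126416) had 505 to 652 reads per library. It stood at 10.23, 9.351 and 9.935 CPM at 0 h, at 10.41, 11.2 and 11.48 at 12 h, and at 10.76, 11.99 and 10.18 at 24 h. The 12 h libraries lay just above those at 0 h, and 1 library at 24 h lay within the 0 h range. The log2 fold change was 0.16 (SE 0.078, 95% interval 0.0049 to 0.32; edgeR adjusted p = 0.153) at 12 h and 0.16 (SE 0.078, 95% interval -0.00092 to 0.32; edgeR adjusted p = 0.163) at 24 h. Without 24 h replicate 2 the 24 h value was 0.090. The spread between replicates was 4.54% to 8.44% of the mean, counting error alone gives up to 4.45%, and the intervals hold values close to 0 as well as a rise like that of GRHL2.

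Of the coregulators, NCOA2 was lower at 12 h and NCOR1 did not pass the test at any time. NCOA2 (ENSG00000140396.13, chr8:70109782-70403808) is a p160 coactivator that binds the ligand-bound receptor. Its levels were 94.26, 91.09 and 88.18 CPM at 0 h, 85.24, 78.82 and 86.58 at 12 h, and 89.29, 83.49 and 89.49 at 24 h. The 12 h libraries lay below those at 0 h without overlap, and the 24 h libraries overlapped both groups. Its difference from 0 h on the log2 scale was -0.13 at 12 h (SE 0.040, 95% interval -0.21 to -0.05; edgeR adjusted p = 0.0206) and -0.06 (95% interval -0.14 to 0.02; edgeR adjusted p = 0.311) at 24 h. The 12 h call was lost without 0 h replicate 1 or 12 h replicate 2, with values of -0.15 to -0.082 over the libraries left out.

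NCOR1 (ENSG00000141027.21, chr17:16029157-16218185), the scaffold of a corepressor complex, stood at 210.6, 202.9 and 216.1 CPM at 0 h, at 210.6, 195.7 and 210.3 at 12 h, and at 207.4, 207.5 and 210.2 at 24 h. The 3 groups overlapped. Its log2 fold changes were -0.03 (95% interval -0.10 to 0.04; edgeR adjusted p = 0.616) at 12 h and -0.01 (95% interval -0.08 to 0.06; edgeR adjusted p = 0.880) at 24 h. These intervals exclude a change as large as that of GATA2 in either direction. TTC19, on the other strand, shares 15859 bases with NCOR1 and had 51.5% as many reads, so the level of NCOR1 rests in part on how reads in the shared bases were counted. TTC19 did not pass the test at either time, with log2 fold changes of 0.04 and 0.07.

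Counted together, 5 of the 8 genes passed at 12 h against 0 h, 2 higher and 3 lower, where 18.7% of all tested genes were called, 10.6% higher and 8.16% lower. At 24 h against 0 h 4 passed, 2 in each direction, where 21.1% of all genes were called, 11.6% higher and 9.48% lower. HOXB13 and SPDEF alone passed between 12 h and 24 h, both lower, where 6.08% of all genes were called, 3.03% higher and 3.05% lower. By the test of any difference among the 3 times 6 of the 8 passed, and 4 to 5 without 1 library, against 25.1% of all genes. The members were not drawn at random, and the shares over all genes were not matched for level. Past 1.5-fold there was no member in any comparison, where 2.37%, 3.31% and 0.452% of all genes were called. The median log2 fold change of the 8 was -0.03 at 12 h and -0.04 at 24 h, beside -0.01 at both times over all tested genes. Their summed level, on library totals, was 1809 to 1856 CPM before treatment, 1819 to 1858 after 12 h and 1794 to 1799 after 24 h.

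**Figure D2:**
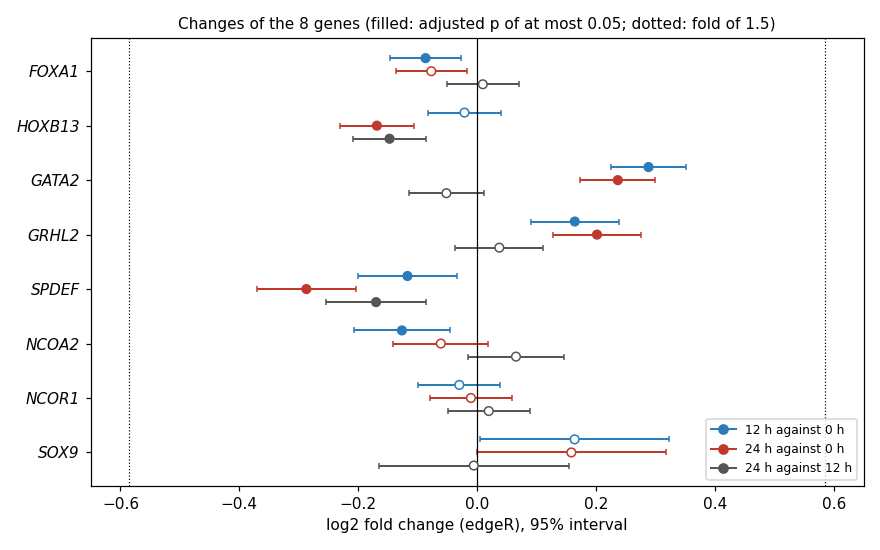
Log2 fold change with 95% interval (edgeR) of each of the 8 genes in the 3 comparisons; filled points passed at an adjusted p of at most 0.05 and dotted lines mark a fold of 1.5. GATA2 and GRHL2 lie to the right of 0 at 12 h and 24 h, SPDEF and HOXB13 reach furthest left at 24 h, and no point reaches a dotted line.

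Levels of different genes were compared per kb of exon. HOXB13 was the most abundant at 154.5 ± 3.736 CPM per kb at 0 h (SD, n = 3), followed by FOXA1 at 126.8 ± 0.7236. GATA2 at 59.63 ± 0.811 and SPDEF at 53.99 ± 2.326 came next. GRHL2 stood at 15.25 ± 0.6383, NCOR1 at 13.43 ± 0.4254, NCOA2 at 9.11 ± 0.3039 and SOX9 at 2.503 ± 0.1136 CPM per kb. The order was the same at 12 h and 24 h, and no neighbours in it overlapped at any of the 3 times. GATA2 and SPDEF, which lay close at 0 h, moved apart to 70.27 and 44.23 CPM per kb at 24 h. At 0 h HOXB13 lay above 98.99% of tested genes per kb, FOXA1 above 98.73%, GATA2 above 96.74% and SPDEF above 96.4%, while SOX9 lay above 51.21%.

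**Figure D3:**
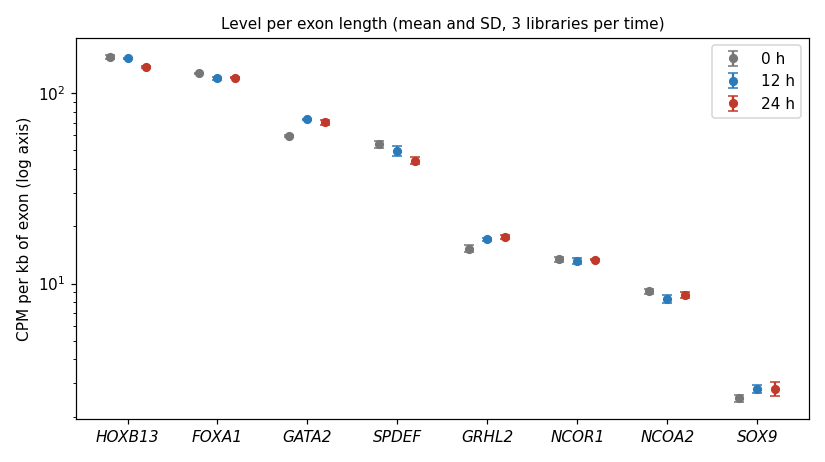
CPM per kb of exon (log axis) of the 8 genes at 0, 12 and 24 h, as mean and SD of 3 libraries. The levels run from 154.5 for HOXB13 to 2.503 for SOX9 at 0 h, and the order is the same at each time.

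Relatives and partners of the members were read from the same fit, having been picked after earlier results were known. FOXA2, HOXA13, GATA3 and SOX2 had 2, 3, 24 and 1 reads over all 9 libraries and were not tested. FOXP1 did not pass, with -0.13 on the log2 scale at 12 h (edgeR adjusted p = 0.0782), nor did HOXA10, with -0.08 at 12 h and -0.17 at 24 h. GRHL1, the Grainyhead relative of GRHL2, had log2 fold changes of -0.02 (95% interval -0.16 to 0.11) at 12 h and 0.01 (95% interval -0.12 to 0.15) at 24 h, at 15.5 CPM at 0 h. GRHL3 was near the limit of detection at 0.76 CPM. EHF, an epithelial ETS factor like SPDEF, fell by 0.19 and 0.27 on the log2 scale, while ELF3, another such factor, rose by 0.25 at 24 h. SOX4 fell by 0.30 and 0.40.

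The other p160 coactivators had log2 fold changes near that of NCOA2. NCOA1 changed by -0.12 at 12 h (edgeR adjusted p = 0.0272, lost without 0 h replicate 1 or 3 or 12 h replicate 2 or 3) and NCOA3 had -0.12 (edgeR adjusted p = 0.0651), which passed with no scaling factor or a minimum of 10 counts in every library. At 24 h their values were -0.06 and -0.05, and neither passed. In the corepressor complex TBL1XR1 fell by 0.26 and 0.24 on the log2 scale and TBL1X by 0.16 and 0.12, the latter lost at 24 h without 0 h replicate 3 or 24 h replicate 1. HDAC3, the deacetylase of the complex, had 0.10 at 12 h (edgeR adjusted p = 0.0695) and 0.06 at 24 h. GPS2 had wide intervals at 2.59 CPM at 0 h.

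**Figure D4:**
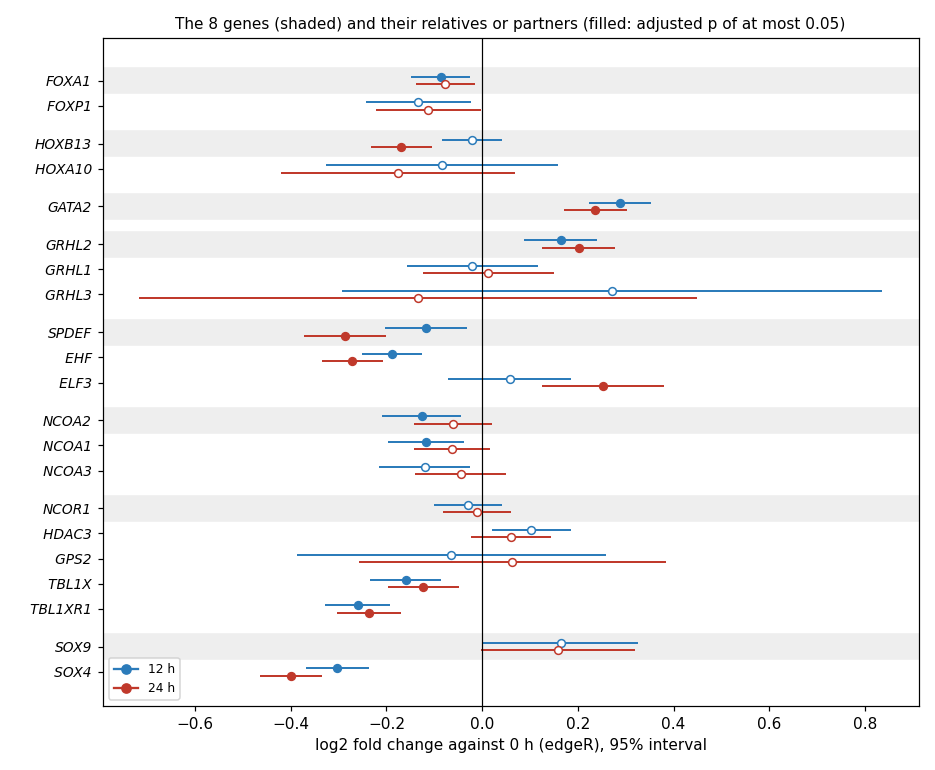
Log2 fold change against 0 h with 95% interval (edgeR) of the 8 genes (shaded) and their tested relatives or partners at 12 h (blue) and 24 h (red); filled points passed at an adjusted p of at most 0.05. TBL1X and TBL1XR1 lie left of 0 at both times while NCOR1 spans 0, and EHF lies on the side of SPDEF while ELF3 lies right of 0 at 24 h.

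Wider lists of the same roles differed in direction. Coactivators moved both ways at 12 h, whereas the calls of corepressor genes were nearly all lower. Beside this list and those that follow, 10.6% of all tested genes were called higher and 8.16% lower at 12 h. At 24 h these shares were 11.6% and 9.48%, and the median log2 fold change over all tested genes was -0.01 at both times. Of 16 nuclear receptor coactivators 4 rose and 3 fell at 12 h, 2 passed at 24 h, both higher, and the median log2 fold change was -0.0042 and -0.0095. The coactivators that rose at 12 h were NCOA7, KDM4C, NCOA4 and KDM1A, and those that fell were CREBBP, NCOA6 and NCOA1. NCOA7 rose by 0.14 and 0.32 on the log2 scale, PRMT1, an arginine methyltransferase, passed at 24 h only (0.18), and the acetyltransferase CREBBP fell by 0.27 at 12 h and had -0.09 at 24 h. The 12 h rise of NCOA7 was lost without 0 h or 12 h replicate 3, and that of KDM4C without 12 h replicate 2 or 3. The fall of NCOA6 was lost without 0 h replicate 3 or 12 h replicate 2, or with trends on GC content and length removed. The rises of NCOA4 and KDM1A (edgeR adjusted p = 0.0070 and 0.0418) were not checked with libraries left out or other settings.

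Of 14 genes of corepressor complexes 6 fell at 12 h, and at 24 h 6 fell and 1 rose, with medians of -0.03 and -0.06. NRIP1, a hormone-induced corepressor, fell by 0.53 at 12 h and by 0.57 at 24 h on the log2 scale, from 70.01 to 74.1 CPM at 0 h to at most 51.63 later. TLE3 fell by 0.21 and 0.30 on the log2 scale, and CTBP2 fell by 0.13 and 0.14. LCOR, a ligand-dependent corepressor, was the 1 gene that rose at 24 h, by 0.30. At 12 h LCOR had 0.16 (edgeR adjusted p = 0.0602) and passed as higher in 6 of 15 alternatives, with values of 0.10 to 0.25 over all of them; it passed by DESeq2, with the replicate number as a block, with all genes with a count, with trends on GC content and length removed (0.25), without 0 h replicate 1 (0.22) and without 12 h replicate 2 (0.22).

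Of 19 tested genes among 26 other epithelial lineage factors 1 rose and 7 fell at 12 h, and 3 rose and 5 fell at 24 h, with a median log2 fold change of -0.06 and -0.02. Among the genes reported here, CREB3L4, a secretory pathway factor of prostate, fell by 0.22 and 0.46 on the log2 scale. KLF5, a low gene at 1.85 ± 0.370 CPM at 0 h, was the 1 that rose at 12 h, by 0.56 on the log2 scale (edgeR adjusted p = 0.0129), a call lost without 0 h replicate 1. At 24 h KLF5 rose by 0.53, lost without 0 h replicate 1 or 3 or 24 h replicate 1, together with ELF3 and ZBTB7A. ZBTB7A rose by 0.12, which was lost without 0 h replicate 3 or 24 h replicate 1 or 3, with all genes with a count, and with trends on GC content and length removed.

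Genes known to respond to androgen fell more often than they rose. Of 22 tested 5 rose and 10 fell at 12 h, 3 rose and 13 fell at 24 h, and 11 were lower and 1 was higher at 24 h than at 12 h. Over all tested genes 10.6% were called higher and 8.16% lower at 12 h, and 11.6% and 9.48% at 24 h. Between 12 h and 24 h the shares were 3.03% higher and 3.05% lower. The median log2 fold change of the list was -0.11 at 12 h and -0.19 at 24 h, beside -0.01 at both times over all tested genes. Among the genes reported here, SLC45A3, a luminal transporter, fell by 0.41 and 0.77 on the log2 scale, the membrane phosphatase PLPP1 by 0.58 and 0.70, and the protease TMPRSS2 by 0.25 and 0.57. In the other direction the transporter ABCC4 rose by 0.39 and 0.51, and KLK3, which encodes prostate-specific antigen, rose by 0.42 and 0.25. The 3 groups did not overlap for KLK3, which lay at 972.8 to 1013 CPM before treatment, 1309 to 1344 after 12 h and 1135 to 1253 after 24 h. The list was written with earlier results of these data known and its direction is a description. Among marker lists, 2 of 7 luminal genes rose (KLK3 and KRT8) and 2 fell (FOLH1 and CDH1) at 12 h, with EPCAM also higher at 24 h. The EPCAM call (edgeR adjusted p = 0.0342) was not checked with libraries left out or other settings. The fall of CDH1 was lost at 12 h without 0 h replicate 3 or 12 h replicate 1 or 2, and at 24 h without 0 h replicate 3 or any 1 of the 24 h libraries, or with only the 6 libraries compared.

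Among the 9 libraries GATA2 varied against FOXA1, with a Pearson r of -0.92 between their log2 CPM, and with GRHL2, with r = 0.86. HOXB13 and SPDEF varied together with r = 0.86, while NCOA2 and SPDEF had r = 0.0058. These values describe 9 libraries of 3 times and rest largely on the differences between times given above. Of 11399 genes compared, those most like GATA2 were NFKB2 (r = 0.99), ODC1 (0.99) and MYC (0.99). Those most like FOXA1 were ZSCAN31 (0.99), ZNF358 (0.98) and ARL6IP5 (0.97), and for HOXB13 they were TIGD6 (0.98), DHRS7 (0.97) and TFPI (0.96). SPDEF was most like PDIA3 (0.99), PBX2 (0.98) and LCP1 (0.98), and GRHL2 was most like SLCO4A1 (0.99), QSOX2 (0.98) and GOLPH3L (0.98). NCOA2 had lower values, with ANKFY1 at 0.94, ZNF506 at 0.94 and PCDHGA6 at 0.94.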

How the data were processed

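RNA of 9 wells of LNCaP cells was sequenced as paired reads. Per the study's methods and the submitters' processing notes, the authors trimmed reads with Cutadapt 4.5, aligned them with STAR 2.7.11a to GRCh38.p13 and counted them per gene with featureCounts 2.0.2 against a GENCODE annotation. The authors deposited raw counts, 1 column per library, with no pooling. The handling of strand and of reads with several matches is not given in the sources used here. The methods state that 1 time-zero LNCaP replicate was left out, without naming the treatment, and the 14 empty columns of the table were not used. The paper's legends give n = 3 for NRG1-treated cells, and fewer in part for cells treated with its other ligand, ASPN. All 3 of the 0 h libraries of the NRG1 series were used here.

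Groups and replicate numbers came from the sample titles. Counts of genes kept by filterByExpr (19250) entered edgeR 4.0.16 (R 4.3.3), with TMM scaling, no covariate and 1 quasi-likelihood fit (robust) to the 9 libraries. Benjamini-Hochberg adjustment covered all genes tested in a comparison, a call being an adjusted p of at most 0.05, and intervals came from the standard error and the t distribution. At 47016302 to 60985825 counts per library, without molecular identifiers, precision from depth covers counting error only. The fit was tested on simulated data.

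Named were all 8 members, up to 4 genes of each other list with the largest change among those called (average log2 CPM of at least 2), the 3 genes most like each member that passed among the 3 times, and genes that overlap a member. Relatives, partners, KLF5, ZBTB7A, CTBP2, NCOA6 and marker genes were named after their values were seen. The members and lists were chosen with earlier results of these data known. Some genes that meet these rules are not reported here. Exon lengths are union exons of GENCODE, gene coordinates those of the deposited table, and promoters those of RefSeq on GRCh38.p14, where 4 of the 8 symbols matched. Alternatives were DESeq2 1.42.0, other scaling and filters, each library left out, a block on the replicate number, a fit of the 6 libraries compared alone, and, chosen after seeing the data, removal of trends on GC content and length and thinning to the smallest total.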

Additional observations from a re-analysis of the deposited data

Results flagged for a closer look

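The change at 24 h differed from that at 12 h, by edgeR's test of 24 h against 12 h, for HOXB13 by -0.15 and for SPDEF by -0.17 on the log2 scale. Among the relatives, partners and listed genes named, it differed for CREB3L4 by -0.24, NCOA7 by 0.18 and CREBBP by 0.18. It also differed there for SLC45A3 by -0.35, TMPRSS2 by -0.32, ABCC4 by 0.12 and KLK3 by -0.17. Of the genes most like a member, it differed for DHRS7 by -0.31, TFPI by -0.29, LCP1 by -0.29 and PDIA3 by -0.13. CREBBP and KLK3 thus moved back towards their 0 h level, while the others moved further from it.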

How the results depend on the processing

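GATA2, GRHL2, HOXB13 and SPDEF kept direction and call at 24 h against 0 h in all 15 alternatives, as did GATA2 and GRHL2 at 12 h and HOXB13 between 12 h and 24 h. With libraries left out, 3 members passed at 12 h (5 with all), 1 to 2 between 12 h and 24 h (2 with all), and 55 to 93 genes passed 1.5-fold between the later times (87 with all), the lowest without 12 h replicate 2. Without a fold threshold 3605, 4065 and 1171 genes passed in the 3 comparisons (457, 638 and 87 with it), and with 1.5-fold 0 members passed in each. FOXA1 at 12 h also lost its call with all genes with a count, and at 24 h passed with no scaling factor, a minimum of 10 counts or DESeq2. Calls that were missed turned sign as follows, on the log2 scale. NCOR1 had 0.022 at 12 h and -0.028 between 12 h and 24 h with GC and length trends removed, and -0.052 to 0.0081, -0.033 to 0.015 and -0.013 to 0.039 over libraries left out at 12 h, at 24 h and between them. SOX9 between 12 h and 24 h had 0.0061 with no scaling factor, 0.0089 with trends removed and -0.077 to 0.047 with libraries left out. GRHL1 had 0.0045 at 12 h when thinned, and with libraries left out -0.067 to 0.043 at 12 h and -0.021 to 0.042 at 24 h. With libraries left out GRHL3 had -0.45 to 0.053 at 24 h, GPS2 -0.12 to 0.0074 at 12 h and -0.053 to 0.22 at 24 h, and NCOA6 -0.069 to 0.00067 at 24 h. The cause was not tested. Part of the other named genes were also put through the alternatives. Of 46 calls on these genes in 690 alternatives, 30 were lost, over 10 calls, and none reversed. A further 9 were gained over 3 results that had missed (LCOR, NCOA3 and PRMT1 at 12 h). The calls on NCOA4, KDM1A, EPCAM, ENO2, COL3A1, LUM and the genes most like a member were not put through the alternatives. With the replicate number as a block 5, 4 and 2 members and 448, 621 and 92 genes passed. Same-numbered libraries had correlations of -0.12 to 0.15 and matched best in 7 of 18 cases. No clear pairing by number was seen, but deviations from means of 3 libraries cannot exclude a weak pairing. SOX9 had the fewest reads of the members, 505 to 652 per library.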
